A study of Mus musculus with 8 samples.

Results

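*Chl1* and *Agtr2* are 2 of the 875 genes in the deposited RNA sequencing table of mouse embryonic fibroblasts (MEFs). They were picked by name for their pattern, namely expression in control cells, a level at or near 0 in cells expressing *EZHIP*, and a partly kept level in cells expressing H3.3 K27M. Those 3 levels are therefore given as a description with no test. The rule sets no level for the *EED* deletion line, but each comparison with that line has on its other side libraries by which the genes were chosen, so none of them is independent of the choice. The authors had kept in the table only genes that differed 2-fold or more when EZHIP cells were set against control, and 380 of these were lower in EZHIP cells. A difference between EZHIP and control cells, in either direction, was therefore nearly fixed for every listed gene.

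The 8 libraries fell into 4 groups of 2. Control was the parental line, MEFs from a mouse embryo with loxP sites in both the *EED* alleles, which all groups carry in floxed or excised form. The EZHIP and K27M lines were made from these cells with lentiviruses that stably express human EZHIP or H3.3K27M, in a vector with the constitutive EF1a promoter by the study's methods, and the EED-null line is 1 clone picked after a hit-and-run lentivirus carrying Cre had excised *EED*. The effect of the deletion and the history of that clone cannot be told apart. By the study's methods, transduced cells were selected with puromycin. Whether control cells were transduced or selected is not stated, so a transgene cannot be told apart from that handling. The labels name the control only as parental cells, and the sources used here do not say whether the 2 libraries of a group came from separate cultures, so the spread between them may be technical.

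*Chl1* encodes close homolog of L1, a membrane protein of the L1 family of cell adhesion molecules. Its extracellular part is built of immunoglobulin and fibronectin type III domains, it binds partners on the same and on neighbouring cells, and it is best known from axon growth and neuronal migration. *Agtr2* encodes the angiotensin II type 2 receptor (AT2), a G protein-coupled receptor that is abundant in fetal mesenchyme, falls after birth in most tissues, and often opposes the growth and pressor actions of the type 1 receptor. EZHIP, H3 K27M and loss of EED all act on Polycomb Repressive Complex 2 (PRC2), which methylates histone H3 at lysine 27 and keeps target genes silent. In mammals PRC2 is recruited mainly to CpG-rich promoters.

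In the mm9 build, *Chl1* (ENSMUSG00000030077.8) lies on the plus strand of chromosome 6 from 103460870 to 103699671. Its longest annotated transcript has 27 exons, 25 of them coding. *Agtr2* (ENSMUSG00000068122.3) lies on the plus strand of chromosome X from 21061670 to 21066290, in a span of 4621 bp against 238802 bp for *Chl1*. Its longest transcript has 3 exons, and the whole coding sequence of 1089 bases sits in 1 of them. No other annotated gene overlaps *Agtr2*, and 1 small nuclear RNA gene, named U7, lies within *Chl1* on the same strand.

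The promoters are shown because PRC2 recruitment depends on CpG sites, and the 2 genes differ in how many they have. Each sequence runs from 250 bases before to 50 bases after the RefSeq start site in the GRCm38.p6 build, 5′ to 3′ on the plus strand, with CpG sites in capitals.
Chl1: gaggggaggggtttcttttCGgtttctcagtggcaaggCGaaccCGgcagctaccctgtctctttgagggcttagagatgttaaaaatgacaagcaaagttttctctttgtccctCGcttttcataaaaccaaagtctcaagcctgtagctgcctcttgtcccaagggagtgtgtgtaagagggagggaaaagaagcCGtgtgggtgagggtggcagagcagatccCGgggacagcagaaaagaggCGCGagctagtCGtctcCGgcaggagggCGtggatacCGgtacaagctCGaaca
Agtr2: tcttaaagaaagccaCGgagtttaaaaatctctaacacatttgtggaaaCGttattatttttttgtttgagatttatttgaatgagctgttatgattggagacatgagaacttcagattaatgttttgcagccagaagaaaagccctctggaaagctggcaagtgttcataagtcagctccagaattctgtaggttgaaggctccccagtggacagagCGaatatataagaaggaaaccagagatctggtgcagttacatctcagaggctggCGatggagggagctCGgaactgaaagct
The first was taken from chr6:103510626-103510925 and the second from chrX:21484374-21484673. Each matched mm9 at a single place on its chromosome, at chr6:103460620-103460919 and at chrX:21061500-21061799. The start site of *Chl1* was the annotated gene start, and that of *Agtr2* lay 80 bp inside the annotated gene.

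The *Chl1* promoter held 13 CpG sites at a GC content of 53.7%, and the *Agtr2* promoter held 5 at 41.3%. The ratio of observed to expected CpG was 0.628 for *Chl1* and 0.411 for *Agtr2*. Over 32841 RefSeq promoters of the same length the median was 7 sites, and it was 11 over 297 promoters of 234 listed genes lower in EZHIP cells and 18 over 443 promoters of 327 listed genes that were higher. *Chl1* was thus above and *Agtr2* below the median of the lower genes. The *Agtr2* promoter also holds the letters TATATAA on its own strand from 28 to 22 bases before the start site, and the *Chl1* promoter holds them on neither strand. This motif was chosen after the sequences were seen. It occurs on either strand in 3.24% of all the promoters, and a match is a description of the letters alone.

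The deposited value is a normalized read count, the estimated reads of a gene divided by 1 size factor per library, and it is not scaled by gene length. *Chl1* stood at 276 and 308 in the 2 control libraries. It stood at 1.18 and 1.14 in EZHIP cells, which is 1 estimated read in each library. K27M cells had 149 and 189. Single reads thus set the EZHIP level, far below the other lines. The EED-null libraries held 126 and 119. The groups did not overlap, and their order was control, K27M, EED-null and EZHIP. In bulk RNA, fewer cells of a type and less RNA per cell cannot be told apart. The means were 292 ± 22.3, 169 ± 27.9, 123 ± 4.92 and 1.16 ± 0.0308 in that order (SD, n = 2 each).

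For *Agtr2*, the control libraries were at 111 and 116. Both EZHIP libraries were at 0, and the K27M libraries were at 55.6 and 56.8. The EED-null libraries were at 5.55 and 0.969, which are 4 estimated reads and 1. The groups again did not overlap, but here EED-null lay next to EZHIP and far below K27M. The means were 113 ± 3.55 in control, 56.2 ± 0.830 in K27M, 3.26 ± 3.24 in EED-null and 0 in EZHIP cells (SD, n = 2 each).

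**Figure D1:**
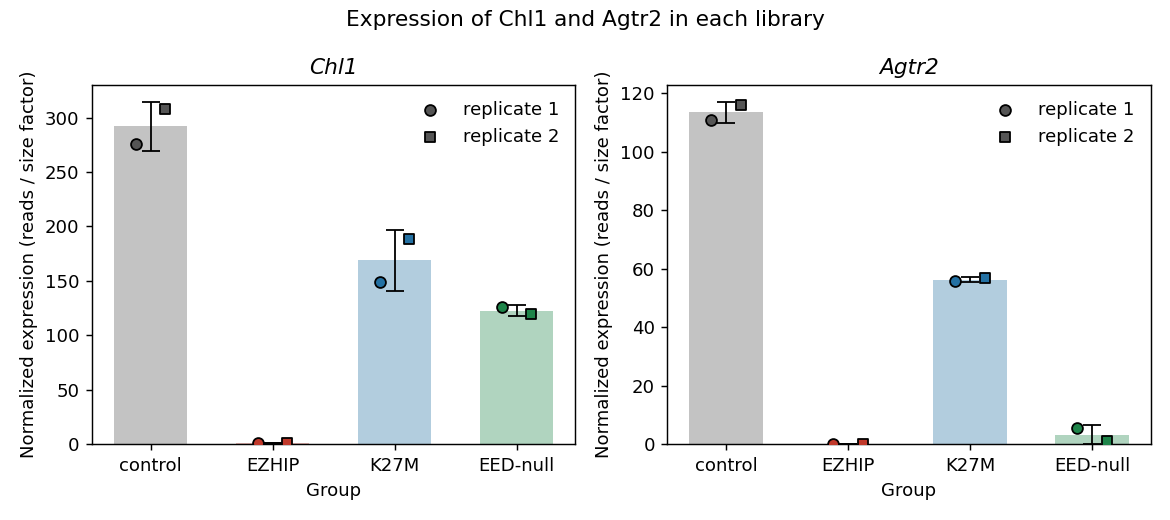
Normalized expression of *Chl1* (left) and *Agtr2* (right) by group, with bars for the mean, error bars for the SD of 2 libraries, and a point for each library. Both genes are near 0 in EZHIP cells and near the middle of the range in K27M cells, and they part in EED-null cells, where *Chl1* is at 126 and 119 and *Agtr2* at 5.55 and 0.969.

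Levels of different genes can be compared only per length. Per kilobase of annotated exon, the normalized value in control cells was 36.7 ± 2.81 for *Chl1* and 34.1 ± 1.07 for *Agtr2* (SD, n = 2), so the difference between the genes was within the spread of *Chl1*. In K27M cells the values per kilobase were 21.3 ± 3.51 and 16.9 ± 0.250. In EED-null cells they were 15.4 ± 0.619 for *Chl1* and 0.979 ± 0.973 for *Agtr2* (SD, n = 2).

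As a share of the control mean, EZHIP cells held 0.398% of the *Chl1* level. From 686 reads in control and 2 in EZHIP cells, *Chl1* was 254-fold lower in EZHIP cells, and the counting error of so few reads alone spans 69.9 to 2099 (exact 95% interval), which describes precision and is no test of a pattern that the choice of the gene had fixed. *Agtr2*, with 0 of its reads in EZHIP cells against 265 in control, was at least 32.5-fold lower when 3 reads are allowed in each library. K27M cells kept 57.9% of *Chl1* and 49.6% of *Agtr2*, and with the libraries rescaled on the listed genes these shares were 42.1% and 36.1%. The listed genes were kept because they differed with EZHIP, so that rescaling does not rest on unchanged genes. Single K27M libraries ranged from 51.1% to 64.7% for *Chl1* and from 49.1% to 50.1% for *Agtr2*. These counting intervals cover counting error only.

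In EED-null cells the 2 genes parted. *Chl1* kept 42.0% of its control level, with 43.2% and 40.8% in the single libraries. *Agtr2* kept 2.87%, with 4.89% and 0.855%. Within single libraries the *Agtr2* value was 40.1% and 37.7% of the *Chl1* value in control and 37.3% and 30.1% in K27M cells. It was 4.40% and 0.813% in EED-null cells, a ratio of values in the same library that no scaling factor alters.

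Both genes were lower in EED-null than in control cells by limma on log2(value + 1), fitted over the 875 genes with Benjamini-Hochberg adjustment. A gene was called where the adjusted p-value was below 0.05 and the change reached 2-fold, and 25.1% of the listed genes were called lower in this comparison. For *Chl1* the log2 difference was -1.24 (standard error 0.14, adjusted p = 0.000259 from limma). For *Agtr2* it was -4.99 (standard error 0.51, adjusted p = 0.000159 from limma). From 265 reads in control and 5 in EED-null cells, *Agtr2* was 39.9-fold lower, with an exact 95% counting interval of 16.9 to 124. The log2 difference of *Agtr2* was -5.86 without EED-null replicate 1 and -4.13 without EED-null replicate 2, and the call held in both. Over all listed genes the median log2 difference between EED-null and control cells was 0.40. Among the 380 listed genes lower in EZHIP cells, to which both members belong, the median level in EED-null cells was 45.0% of control. Both genes had been chosen as expressed in these control libraries. With 2 libraries on each side the smallest p-value of an exact permutation test (two-sided) is 0.333, and limma reaches lower values by sharing the spread between libraries over all genes.

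Against EZHIP cells the comparison is a description, since a level at or near 0 there was the reason for choosing the genes and a higher level in EED-null cells was nearly fixed by it. The log2 difference of *Chl1* between EED-null and EZHIP cells was 5.84 (standard error 0.14). The pooled reads, 214 in EED-null and 2 in EZHIP cells, gave a 105-fold ratio whose counting error spans 28.7 to 873 (exact 95% interval). In this comparison 25.1% of the listed genes were called higher and 19.8% lower, and nothing is read from that for the 2 genes. For *Agtr2* it set 5 reads against 0. Its log2 difference of 1.84 followed the pseudocount, from 0.67 with 5 to 4.62 with 0.1, and was 0.98 without EED-null replicate 1. No fold is given because both group means lay under the value of 3 reads per library, so the depth does not separate the EED-null from the EZHIP level of *Agtr2*.

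Against K27M cells, *Agtr2* was lower in EED-null cells by a log2 difference of -3.99 (standard error 0.51, adjusted p = 0.000598 from limma), and 27.8% of the listed genes were called lower and 26.6% higher there. A partly kept level in these K27M libraries was part of the choice of the gene. The pooled reads of 125 against 5 corresponded to a 19.7-fold difference, with an exact 95% interval of 8.23 to 61.8. Without EED-null replicate 1 the log2 difference was -4.86 and without EED-null replicate 2 it was -3.13, both called. For *Chl1* the log2 difference was -0.45 (95% interval -0.80 to -0.10, adjusted p = 0.0266 from limma), which is under 2-fold and was not called. The log2 difference of *Chl1* was -0.62 without K27M replicate 1 and -0.28 without K27M replicate 2. It was -0.49 without EED-null replicate 1 and -0.41 without EED-null replicate 2. Its adjusted p was 0.0722 with a variance trend and 0.0604 with only the 2 groups compared, both by limma. The pooled reads gave a 1.39-fold ratio, with an exact 95% counting interval of 1.17 to 1.65. K27M and EED-null are therefore neighbours in the order of *Chl1* levels, with a small difference of steady sign. For *Agtr2* they are separated.

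**Figure D2:**
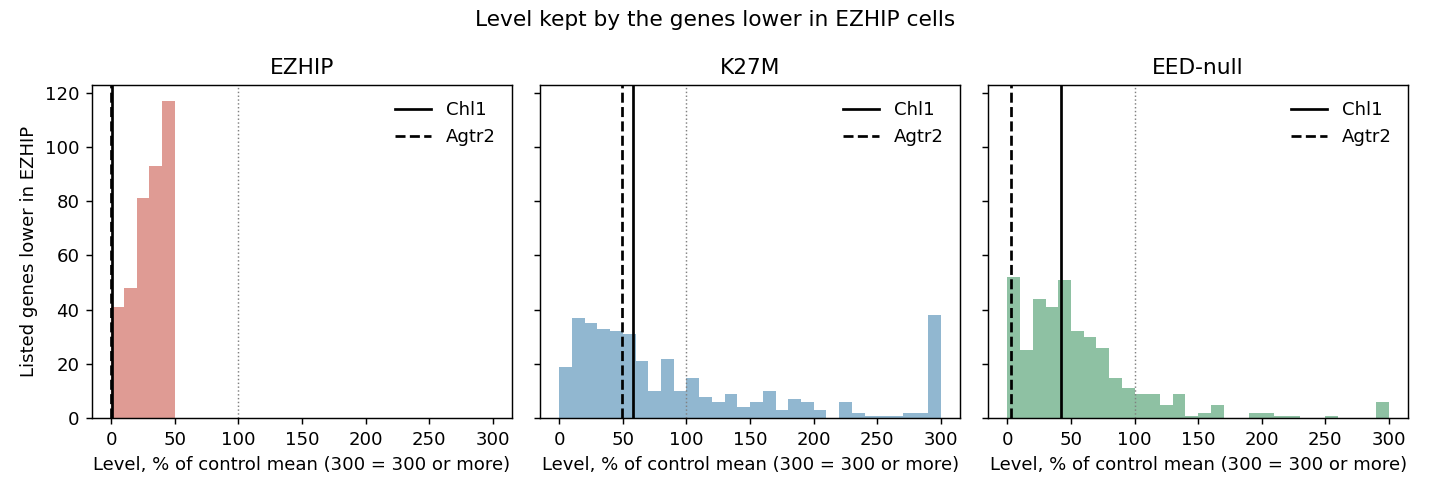
Level of the 380 listed genes lower in EZHIP cells, as a percent of the control mean, in EZHIP, K27M and EED-null cells, in bins of 10 with values above 300 in the last bin. The solid and dashed lines mark *Chl1* and *Agtr2*, which lie near the middle of the K27M panel, while in the EED-null panel *Agtr2* lies at the left end and *Chl1* near the middle.

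Among the 380 listed genes lower in EZHIP cells, the median share of the control level was 31.8% with EZHIP, 62.3% with K27M and 45.0% in EED-null cells. Both genes were thus close to the median in K27M cells, with 46.8% of the genes below *Chl1* and 40.5% below *Agtr2*. In EED-null cells 44.7% of the genes kept a smaller share than *Chl1*. A smaller share than that of *Agtr2* was kept by 16 of the 380, or 4.21%. In EZHIP cells *Agtr2*, *Filip1* and *Dnahc8* were listed at 0, and the next shares were 0.342% for *Gm14430* and 0.398% for *Chl1*.

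A control mean of at least 50 together with at most 3 estimated reads in both EZHIP libraries was met by 6 genes, *Chl1* and *Agtr2* among them. The other 4 were *Gm14430*, *Rtl1*, *Gm7609* and *Adamts3*, and they shared no single pattern in the other lines. *Adamts3*, a procollagen peptidase, was at 169% of control in K27M and 56.2% in EED-null cells. *Rtl1*, an imprinted gene derived from a retrotransposon, was at 44.0% in K27M and 164% in EED-null cells. *Gm7609*, a predicted gene, was at 116% in K27M and 2.33% in EED-null cells. *Gm14430* was at 0.0600% in K27M and 129% in EED-null cells, but its values are uncertain because the genome holds very similar copies of it that could share reads.

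**Figure D3:**
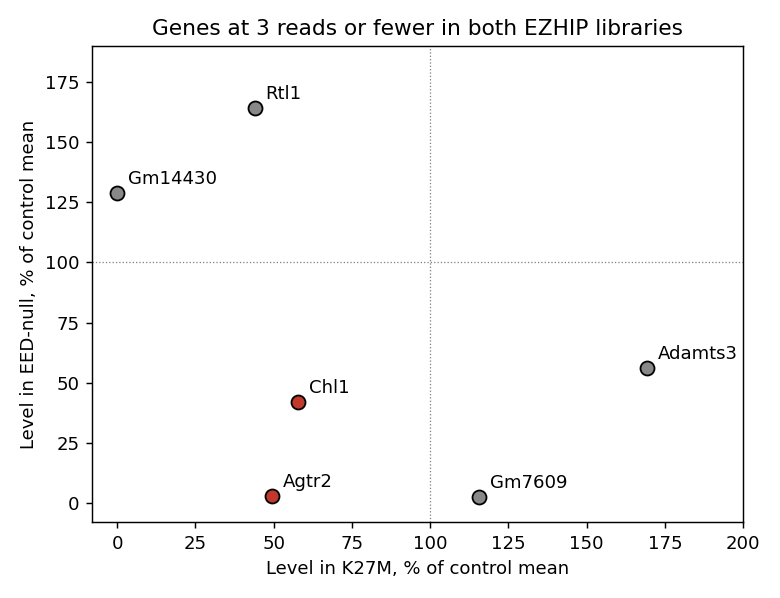
Mean level in K27M cells (horizontal) and in EED-null cells (vertical), as a percent of control, for the 6 genes with a control mean of at least 50 and at most 3 reads in both EZHIP libraries. *Chl1* lies at 57.9% and 42.0% and *Agtr2* at 49.6% and 2.87%, and the other genes are spread over both axes.

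The other listed genes of the L1 family moved opposite to *Chl1*. A list of 28 genes of the family and its partners had 6 genes in the table, and the rest were not analysed here. *L1cam*, the founding member of the family, had a control mean of 40.6 ± 2.10 and rose in each line, to 209 ± 17.1 with EZHIP, 131 ± 1.02 with K27M and 572 ± 69.1 in EED-null cells (SD, n = 2 each). Its log2 difference from control was 1.67 in K27M and 3.78 in EED-null cells (adjusted p = 4.35e-05 and 1.85e-06 from limma). *Nfasc*, which encodes neurofascin, a family member of axon initial segments and nodes, was at 0 and 0.738 in the control libraries and at 58.7 ± 2.38, 22.4 ± 6.70 and 116 ± 8.90 in EZHIP, K27M and EED-null cells (SD, n = 2). It was called higher in each of the 3 lines, though a call with EZHIP was nearly fixed by the 2-fold cutoff for listing.

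Per kilobase, *Chl1* made up 85.8% and 87.8% of the summed level of *Chl1*, *L1cam* and *Nfasc* in the control libraries. In EZHIP cells it made up 0.412% and 0.441%, and *L1cam* made up 83.5% and 82.6%. The share of *Chl1* was 48.9% and 53.9% in K27M cells and 14.3% and 15.3% in EED-null cells. Among these 3 genes *Chl1* therefore led in control, was narrowly above *L1cam* in K27M and gave way to *L1cam* in the other 2 lines. *Nrcam*, the remaining member of the family, was not analysed here.

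Of the other 5 listed genes of this list, 3 were called higher and 2 lower in each of EZHIP, K27M and EED-null cells against control, where 56.0% and 43.1%, 41.4% and 20.0%, and 39.9% and 25.1% of all listed genes were called higher and lower. A call with EZHIP, in either direction, was nearly fixed by the 2-fold cutoff for listing. Their median log2 difference was 3.78 in EED-null cells, against 0.40 over all listed genes, and 1.67 in K27M cells, against 0.58. *Plxna4*, a plexin that transmits semaphorin signals, held 1 read in each control library and reached 134 ± 28.5 with EZHIP, 3232 ± 747 with K27M and 83.7 ± 0.799 in EED-null cells (SD, n = 2). The 2 genes that fell in each line were *Itga1*, the collagen-binding integrin subunit alpha 1, and *Sema3b*, a secreted semaphorin. *Itga1* had a control mean of 402 ± 1.86 and stood at 148 ± 1.47 with EZHIP, 183 ± 1.27 with K27M and 166 ± 1.89 in EED-null cells (SD, n = 2), and *Sema3b* had log2 differences of -1.13, -1.51 and -1.35.

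A second list held 49 other adhesion and guidance receptors with immunoglobulin domains, of which 8 were in the table. In EED-null cells 3 of them were called higher and 2 lower than control, and in K27M cells 2 were higher and 3 lower, against the 39.9% and 25.1%, and the 41.4% and 20.0%, of all listed genes given above. *Boc*, a co-receptor for Hedgehog, was lower in EED-null cells (log2 difference -1.09, adjusted p = 0.000142 from limma), as was *Unc5c*, a netrin receptor (log2 difference -1.56, adjusted p = 2.38e-05). *Cxadr*, the coxsackievirus and adenovirus receptor of cell junctions, rose from 302 ± 7.76 in control to 4005 ± 21.7 in EED-null cells (SD, n = 2). *Robo1*, a receptor for Slit, was lower in K27M cells, with a log2 difference of -2.73, and was not called in EED-null cells (log2 difference -0.41).

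**Figure D4:**
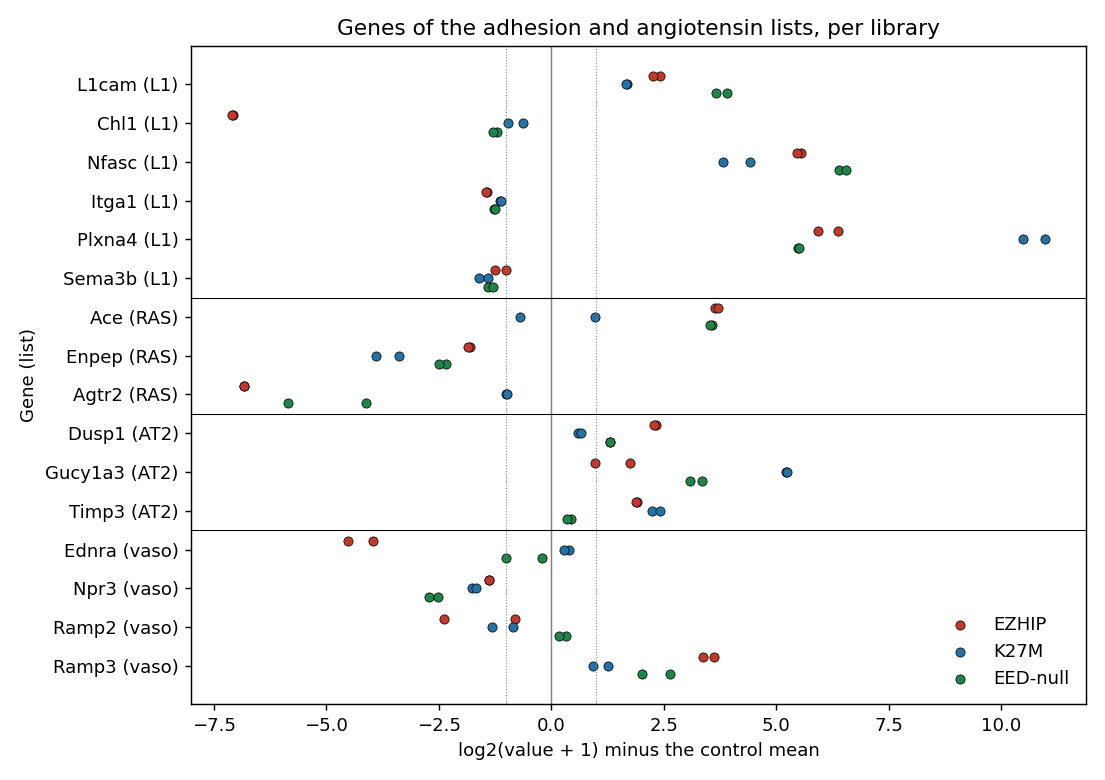
Difference of each EZHIP, K27M and EED-null library from the control mean on the log2(value + 1) scale, for the listed genes of the L1 family and its partners (L1), the renin-angiotensin system (RAS), AT2 partners and effectors (AT2) and other vasoactive peptides and receptors (vaso), with dotted lines at 2-fold. *Chl1* lies to the left and *L1cam* and *Nfasc* to the right of 0 in every library, and *Agtr2* lies at or left of about -4 in EED-null and EZHIP libraries.

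Of 21 genes of the renin-angiotensin system, *Agtr2* and 2 others were in the table. Angiotensinogen, renin and the type 1 receptors were not analysed here. *Ace*, the enzyme that makes angiotensin II, was at 3.08 and 13.3 in the control libraries and rose to 95.7 ± 3.16 in EZHIP and 88.7 ± 2.05 in EED-null cells (SD, n = 2). In K27M cells it was at 3.71 and 14.0 and was not called (log2 difference 0.14). *Enpep*, the aminopeptidase A that trims angiotensin II, had a control mean of 454 ± 21.5 and fell to 127 ± 3.36 with EZHIP, 36.3 ± 9.30 with K27M and 84.1 ± 6.55 in EED-null cells (SD, n = 2). Its log2 difference was -3.63 in K27M and -2.42 in EED-null cells (adjusted p = 8.95e-06 and 4.01e-05 from limma). The receptor and *Enpep* thus fell in EED-null cells, in which *Ace* rose, and K27M had the lowest mean of *Enpep* and the highest mean of *Agtr2* among the 3 lines.

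Of 17 partners and effectors of AT2, 3 were listed, and none of the 3 was called lower in any line, where 43.1%, 20.0% and 25.1% of all listed genes were called lower with EZHIP, with K27M and without EED. *Dusp1*, a MAP kinase phosphatase, had log2 differences from control of 2.30 with EZHIP, 0.63 with K27M and 1.31 in EED-null cells, the second of which is under 2-fold. *Gucy1a3*, a subunit of soluble guanylate cyclase, was higher in K27M and EED-null cells, with log2 differences of 5.23 and 3.22. *Gucy1a2*, another subunit of that enzyme, is not among the 17 and went the other way. It was at 31.2% of control with EZHIP, 9.14% with K27M and 25.0% in EED-null cells. *Timp3*, an inhibitor of metalloproteinases, was higher in K27M cells (log2 difference 2.32) and not called in EED-null cells (log2 difference 0.40).

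Of 39 other vasoactive peptides and receptors, 4 were listed. *Ednra*, the endothelin receptor type A, stood at 99.6 and 106 in control and at 3.55 and 5.70 in EZHIP cells. Its K27M libraries were at 134 and 125 and its EED-null libraries at 88.7 and 50.4, and neither difference from control was called (log2 differences 0.34 and -0.61). *Npr3*, the natriuretic peptide clearance receptor, was lower in K27M and EED-null cells, with log2 differences of -1.72 and -2.62. *Ramp3*, which pairs with calcitonin-type receptors, was higher in EED-null cells with a log2 difference of 2.33. *Ramp2* was called in neither K27M nor EED-null cells and was lower with EZHIP (log2 difference -1.60).

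The genes most like each member were taken by Pearson's correlation of log2(value + 1) over the 8 libraries, as a description. For *Chl1* they were *Chrdl1* (r = 0.996), *Tet1* (r = 0.994), *Dlk1* (r = 0.989), *Fut4* (r = 0.987) and *Crip1* (r = 0.984). *Dlk1*, an imprinted Notch-family ligand, came closest in size, at 4.99% of control with EZHIP, 62.5% with K27M and 39.7% in EED-null cells. *Tet1*, a DNA demethylation enzyme, changed much less, to 42.0%, 90.4% and 80.1%. Of the 5 genes, 1 (*Dlk1*) was called lower in EED-null cells, where 25.1% of all listed genes were called lower. The EED-null libraries were among those by which these 5 were picked.

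For *Agtr2* they were *Ptprz1* (r = 0.989), *Filip1* (r = 0.982), *Fmod* (r = 0.981), *Naalad2* (r = 0.980) and *Egfr* (r = 0.980). *Ptprz1*, a receptor tyrosine phosphatase of neural progenitors, was at 2.76% of control with EZHIP, 45.4% with K27M and 8.44% in EED-null cells, from a control mean of 1792. *Filip1*, a filamin-binding protein, was at 38.5% in K27M and 6.10% in EED-null cells and was listed at 0 in EZHIP cells. In EED-null cells each of the 5 was called lower, as were 25.1% of all listed genes, and the EED-null libraries were among those by which the 5 were picked. The correlation between *Chl1* and *Agtr2* was 0.821, which placed *Agtr2* at rank 94 for *Chl1* and *Chl1* at rank 114 for *Agtr2* among the other listed genes. All these points share the same 8 libraries and, within them, the same 4 group levels.

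**Figure D5:**
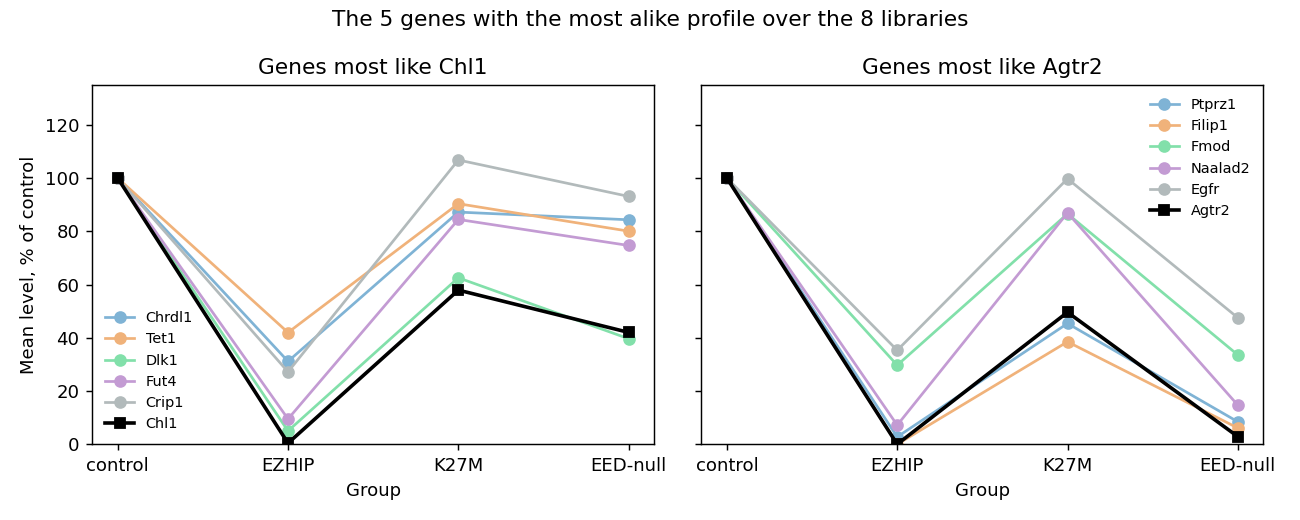
Mean level by group, as a percent of control, of *Chl1* and *Agtr2* (black) and of the 5 genes with the highest correlation to each over the 8 libraries. Each curve dips in EZHIP cells and is higher in K27M cells, and the curves on the right fall again in EED-null cells, *Agtr2* to 2.87% and its 5 correlates to between 6.10% and 47.5% of control.

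No listed gene lies close to either locus. The nearest on chromosome 6 were *Frmd4b*, 5.89 Mb below *Chl1*, and *Lmcd1*, 8.52 Mb above it. *Frmd4b* was called higher in all 3 lines and *Lmcd1* in EZHIP cells alone. A call with EZHIP, in either direction, was nearly fixed by the 2-fold cutoff for listing. The nearest on chromosome X were *Lancl3*, 12.2 Mb below *Agtr2*, called higher with EZHIP and without EED, and *Smarca1*, 24.1 Mb above it, called lower in EZHIP cells alone of the 3 lines. Of the 49 other listed genes on chromosome 6, 23 were called higher and 11 lower in EED-null cells. On chromosome X, 11 of 25 were called higher and 6 lower. Over all listed genes 39.9% were called higher and 25.1% lower. The median log2 difference between EED-null and control cells was 0.91 on chromosome 6 and 0.42 on chromosome X.

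Identity of the cells could be checked only on listed genes. Of 12 fibroblast markers 3 were listed, and their summed level was 17719 to 18112 in control libraries, 6460 to 6934 in EZHIP, 5560 to 5876 in K27M and 5723 to 5805 in EED-null libraries. All 3 were called lower in EZHIP and in EED-null cells, where 43.1% and 25.1% of all listed genes were called lower. For any listed gene a call with EZHIP, in either direction, was nearly fixed by the 2-fold cutoff for listing. In K27M cells *Col3a1* was called lower, as were 20.0% of the listed genes, and *Dcn* higher, as were 41.4%. The summed level in control cells was mostly *Col3a1*, with a mean of 17455 against 372 for *Dcn*. With K27M the means of *Col3a1* and *Dcn* were 2361 and 3224, so the sum for that line hides opposite changes. *Fap*, a protease of activated fibroblasts, stood at 82.1 and 94.5 in control libraries, with 8.28 and 13.7 under EZHIP, 104 and 162 under K27M and 2.77 and 8.72 without EED. *Stmn2*, 1 of 10 neural and glial markers, was the sole one found by its symbol. It stood at 44.1 and 45.0 in the control libraries, with 1.14 to 2.37 under EZHIP, 10.5 to 14.8 under K27M and 39.7 to 73.5 without EED. *Map2*, another of the 10, is listed under its older symbol *Mtap2*. Its level was 37.8% of control with EZHIP, 40.5% with K27M and 10.5% in EED-null cells, so the 2 markers differed in EED-null cells. Of 6 endothelial markers *Kdr* was listed, with at most 11.1 in control and EED-null libraries and 51.3 to 222 in the others, and the summed level of the 2 listed of 6 epithelial markers was 3.69 to 6.16 in control, 36.5 to 59.2 in EZHIP, 109 to 141 in K27M and 24.4 to 43.0 in EED-null libraries. No smooth muscle, skeletal muscle or leukocyte marker was listed. The part of these changes in the levels of *Chl1* and *Agtr2* was not tested. Of 11 PRC2 subunits *Phf19* alone was listed, and it was called lower in EZHIP cells and in neither of the others. *Eed* was not analysed here, and the deletion is therefore taken from the labels alone.

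The libraries held between 209390 and 424561 estimated reads on the listed genes, with the fewest in EED-null replicate 1, and 1 read was worth between 0.738 and 1.39 units of normalized expression. A single read is therefore the step in which the EZHIP values of *Chl1* and the EED-null values of *Agtr2* were measured.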

How the data were processed

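RNA of MEFs, to which the authors had added RNA of FFT cells, was depleted of ribosomal RNA and sequenced in 8 libraries. The authors aligned the reads to an mm9 transcriptome per the labels and estimated reads per gene with RSEM, version 1.2.4 in the submitters' processing notes. They tested expression with EBSeq. The deposited signal equals those estimates scaled by a single factor in each library, and genes that did not reach the 2-fold cutoff were not analysed here.

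What 1 read is worth was taken as the largest step of which the values under 300 in a library were multiples of 0.01 and most were whole. Between 72.2% and 82.5% of values were then whole reads within 0.003, so no count model was fitted. That share was partly set by the choice of the step. A step of 0.5 of that size added at most 0.343 percentage points, and 0 genes lay at 0.5 of a read in any library. The test was limma 3.58.1 (R 4.3.3), run on log2(value + 1) over all 8 libraries. Python 3.11.15, pandas 2.3.3, numpy 2.4.6, scipy 1.17.1 and matplotlib 3.10.9 were used for the rest. Ratios of pooled reads have exact Clopper-Pearson intervals. The fit was tested on simulated data, drawn as normal values on the log2 scale, so that test did not check levels of a few reads.

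Positions came from an mm9 annotation, which gave 850 of the 875 names exactly 1 locus. The genes and lists were chosen with earlier results of these data known. Named genes are the 2 members, listed genes of 13 lists, the 5 most correlated with each, those sharing the EZHIP and control limits, and the nearest on each chromosome. *Mtap2* and *Gucy1a2* were added afterwards, as genes related to those lists. Alternatives were pseudocounts of 0.1 and 5, a mean of at least 5, rescaling, a replicate block, a variance trend, only the 2 groups compared, and each library left out.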

Additional observations from a re-analysis of the deposited data

Results flagged for a closer look

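3 differences between lines are listed because they met the rule for listing, a called difference between lines. All 3 involve libraries by which the genes were chosen, so they are not independent findings. Those against EZHIP cells are a description only, since a higher level in EED-null cells was nearly fixed by the choice. *Chl1* differed between EED-null and EZHIP cells by 5.84 on the log2 scale. *Agtr2* differed between EED-null and EZHIP cells by 1.84, from 5 estimated reads against 0, and this fell under the threshold in 5 of 15 alternatives. *Agtr2* was at -3.99 on the log2 scale in EED-null against K27M cells, and was lower in each EED-null library than in each K27M library. Groups of 2 libraries are too small for a check of single libraries that stand apart.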

How the results depend on the processing

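For *Chl1*, the log2 difference between EED-null and control cells ran from -1.64 to -1.22 over 7 alternatives and from -1.32 to -1.16 with each library left out, and the call held. Against EZHIP cells it ran from 4.37 to 6.60 and from 5.80 to 5.88. Against K27M cells it ran from -0.45 to -0.39 and from -0.62 to -0.28, and was under 2-fold throughout. For *Agtr2*, the difference from control ran from -5.53 to -3.90 and from -5.86 to -4.13, and that from K27M cells from -4.52 to -2.95 and from -4.86 to -3.13, with the calls kept. The difference from EZHIP cells was not called with a pseudocount of 5 (0.67) or with only the 2 groups compared (1.84), and ran from 0.98 to 2.71 with each library left out, where the remaining library of a group is assumed to vary like the other groups.

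Scaling the libraries to the listed genes, which are not a set of unchanged genes, shifted the log2 ratio of the values to control. The shift was -0.40 in EED-null, -0.46 in K27M and -0.32 in EZHIP cells, and less for low values once the pseudocount was added. The share of control then became 31.9% for *Chl1* in EED-null, 42.1% in K27M and 0.319% in EZHIP cells, and 36.1% for *Agtr2* in K27M cells. With single libraries left out, the shares of *Chl1* ran from 39.9% to 44.4% in EED-null, from 51.1% to 64.7% in K27M and from 0.378% to 0.421% in EZHIP cells, and that of *Agtr2* from 48.5% to 50.7% in K27M cells.

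With the replicate number as a block, the log2 difference between EED-null and control cells was -1.24 for *Chl1* and -4.99 for *Agtr2*, and no call on either gene changed. The labels do not say that a number marks a shared batch, and replicate differences correlated between groups by -0.0893 to 0.105. The numbers of listed genes called in EED-null cells stayed within 211 to 281 lower and 311 to 351 higher. Depth limits *Agtr2* in EED-null and EZHIP cells, where 5 reads and 0 were measured.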
